A study of Drosophila melanogaster with 4 samples.

Results

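Trehalose is the main sugar of insect blood, and the genes that make and break it down were followed in *Drosophila* larvae mutant for *ash2*, a gene of the trithorax group, whose proteins keep transcription active through chromatin. The set held 4 genes, of 12058 with a probe of their own on the arrays. *CG5171* and *CG5177* are neighbours and were chosen by their fall in this same comparison, so their values are given as a description with no test. *Tps1* and *Treh* were added for their roles in synthesis and breakdown. All 4 genes had a value on at least 1 array, and 3 had a value in both RNA extractions of the mutant and entered the test, of 1659 genes that did. *Treh* was read on 1 array only.

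Whole larvae in the third instar were compared on 4 two-colour arrays. The mutant larvae (w1118;+;ash2I1) came from a stock balanced over TM6c, into which chromosomes X, Y and 2 of the isogenic wild-type line had been brought, and larvae lacking the Tubby marker of the balancer were picked. The wild type (w1118;+;+) was that isogenic line, and its RNA was pooled into 1 reference for all arrays. Arrays 1 and 2 carried mutant extraction 1 and arrays 3 and 4 carried extraction 2, so n = 2 throughout, and this number limits the precision. All larvae were wandering, early in the instar, and staged by blue dye in the gut. All 4 trehalose genes lie on chromosome 2 (*CG5171*, *CG5177* and *Tps1* on arm 2L, *Treh* on 2R), which mutant stock and wild type had in common after the exchange. The gene *ash2* is on chromosome 3, which was not exchanged. An effect of other differences on chromosome 3 therefore cannot be told apart from one of the *ash2* mutation.

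In insects, trehalose is made chiefly in the fat body, the organ that also stores fat and glycogen. The first step joins glucose 6-phosphate and UDP-glucose into trehalose 6-phosphate, and a phosphatase then frees the sugar, which leaves for the blood. Trehalase splits it back into glucose where it is used. *Tps1* encodes the trehalose 6-phosphate synthase, *CG5171* and *CG5177* are predicted to encode phosphatases of trehalose 6-phosphate, and *Treh* encodes trehalase. Which of these steps each product carries out in the larvae was not measured, so the genes are not read as separate steps.

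The members did not move together. *CG5171* was 7.37-fold lower and *CG5177* 2.35-fold lower in the mutant (SE on the log2 scale 0.14 and 0.20, n = 2), while *Tps1* was 3.09-fold higher (SE 0.16, n = 2). *Treh* stood above 0 on the only array that read it. The direction of the log2 ratios, mutant over wild type, is not stated with the values. It rests on the labels, which give Cy5 to the mutant and Cy3 to the pool throughout, and on the convention of limma to divide Cy5 by Cy3. Base 2 for the logarithm follows from that convention too. Dyes were never exchanged between mutant and pool, so an effect of the dye cannot be told apart from one of the genotype.

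The probe of *CG5171* gave log2 ratios of -3.15 and -2.38 on arrays 1 and 2 and of -3.00 on array 3, with no value on array 4. All 3 values lay far below 0, and that of extraction 2 fell between those of the arrays of extraction 1. The extraction means were -2.76 and -3.00, and their mean was -2.88 ± 0.14 (SE, n = 2), with an SD of 0.17 between extractions. On each array the gene was among the lowest, as the 10th lowest of 2481 genes on array 1, the 8th of 1486 on array 2 and the 5th of 2448 on array 3. Over the extraction means it was the 2nd lowest of all 1659 tested genes.

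The fall of *CG5177* was smaller. Its probe was read on every array, with log2 ratios of -1.95, -1.14, -1.14 and -0.71 on arrays 1 to 4. All values were below 0, with array 1 the lowest and array 4 the only one short of a 2-fold change. The extraction means of -1.55 and -0.93 gave -1.24 ± 0.20 (SE, n = 2). Their SD of 0.44 was above that of *CG5171*, but array 4 entered it for *CG5177* only, so the 2 SDs are not alike. It took the 38th lowest place among the tested genes. On every array that read both genes *CG5171* had the lower ratio. How like the sequences of their probes are was not analysed here, so reading of the RNA of one gene by the probe of the other was not tested.

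*Tps1* went the other way. Its log2 ratios were 2.27 and 1.36 on arrays 1 and 2 and 1.44 on array 3, with no value on array 4. All 3 values were above a 2-fold rise, and array 1 was the highest. The extraction means were 1.81 and 1.44, and the gene rose by 1.63 ± 0.16 on the log2 scale (SE, n = 2, adjusted p = 0.0218 in limma over all tested genes), higher on 3 of 3 arrays. It was the 27th highest of the tested genes. This gene was listed for its function, but after results of these data were known, and the test leaves out the spread of the wild-type pool, which counts as 1 control sample. Over 9 alternative settings the log2 ratio ran from 1.40 to 1.85 with adjusted p from 0.00293 to 0.046 in limma. The gene stayed called in each, though some of these settings left its own values unchanged.

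**Figure D1:**
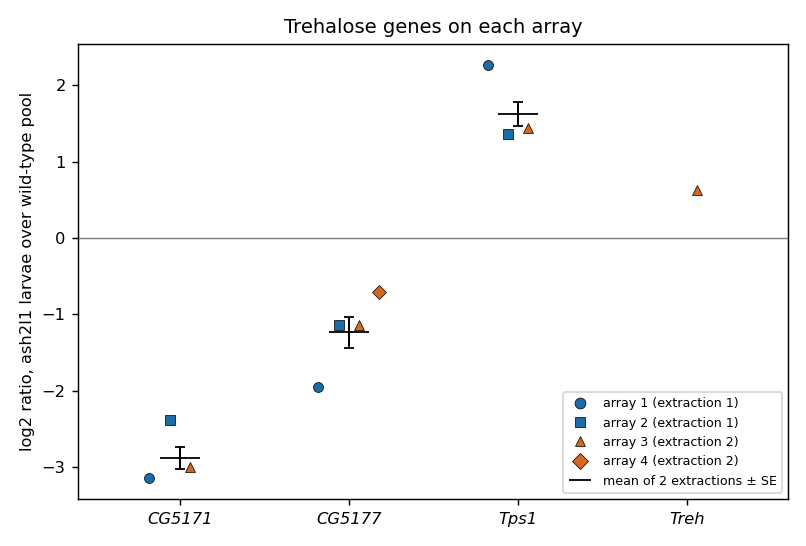
Log2 ratio (ash2I1 larvae over the wild-type pool) of each trehalose gene on each array, with 1 point per array, coloured by RNA extraction, and bars for the mean of the 2 extractions ± SE. *CG5171* and *CG5177* lie below 0 on every array that read them and *Tps1* above 0, while *Treh* has a single point at 0.63.

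*Treh* could not be tested. Of its 3 probes, only 1 gave a value, a log2 ratio of 0.63 on array 3, and the other probes had none on any array. On that array it was the 216th highest of 2448 genes. With 1 array there is no replicate, so *Treh* RNA is known here from a single spot, and breakdown itself was not measured.

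In the 3 members read on both, array 1 lay farther from 0 than array 2, although these carried the same amplified RNA. The SD of the gene ratios was also larger on array 1 (0.81 over 2481 genes) than on array 2 (0.63 over 1486 genes). The median absolute deviations of the probe ratios were nearly equal, 0.283 and 0.279. In units of each array's own SD, *CG5171* was at -3.90 on array 1, -3.77 on array 2 and -5.08 on array 3, and *Tps1* at 2.82, 2.15 and 2.43. On this scale the array 1 and 2 values of *CG5171* nearly met. Those of *CG5177* were -2.42, -1.81, -1.93 and -1.26 on arrays 1 to 4, still uneven.

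A call required a change of 2-fold or more together with an adjusted p below 0.05 in limma. Of 1659 tested genes 6.63% were called, 3.80% higher and 2.83% lower in the mutant. *Tps1* was called higher. *CG5171* and *CG5177* were picked for their fall, so no call is given for them and no count of members called is read. Without array 2 the calls over all genes went from 110 to 55, and without array 3 to 0 of 358 tested genes, where 67 had an unadjusted p under 0.05. *CG5171* and *Tps1* rest on array 3 alone in extraction 2, as did 1301 of the tested genes, and could not be tested without it. *CG5177* kept a log2 ratio of -1.44 without array 2 and of -1.13 without array 3.

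**Figure D2:**
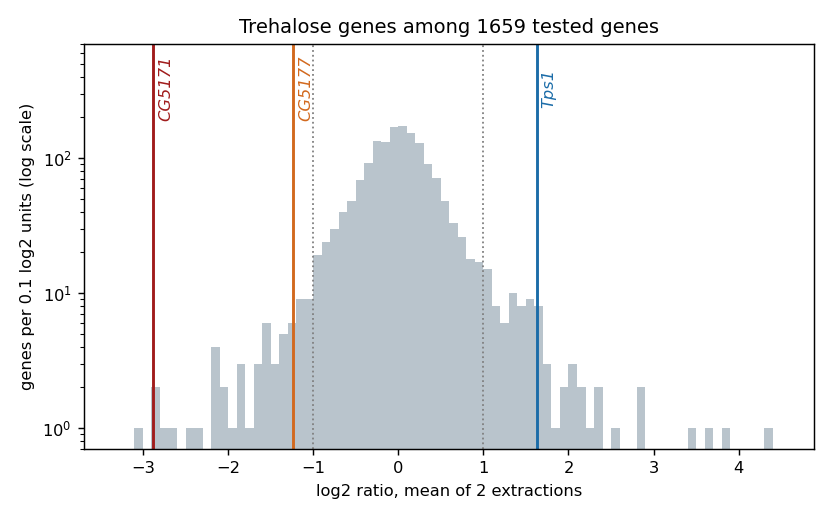
Histogram of the log2 ratios of all 1659 tested genes (mean of 2 extractions, log scale on the count axis) with the 3 tested trehalose genes as vertical lines. *CG5171* at -2.88 is at the far lower end, *CG5177* at -1.24 just past the dotted line of a 2-fold change, and *Tps1* at 1.63 past the line on the upper side.

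*CG5171* and *CG5177* follow each other along arm 2L, with 1 annotated gene between them, the long non-coding RNA gene *lncRNA:CR46205*, and no protein-coding gene. The genes around them were examined to see how far the fall reached. Within 5 annotated genes on either side 3 others had a value, and none was lowered past a 2-fold change. *CG15818*, beyond *CG5177*, had log2 ratios of 0.80, 0.51, 0.58 and 0.30 on arrays 1 to 4, all above 0, with a mean of 0.55 ± 0.14 (SE, n = 2, adjusted p = 0.0788 in limma). *CG5181*, which lies between *CG5177* and *CG15818*, was read on array 3 only, at -0.08. *CG5149*, on the far side of *CG5171*, had -0.04 on array 1 and 0.54 on array 3 (mean 0.25 ± 0.19, adjusted p = 0.405 in limma). The nearest protein-coding gene on that side, *CG5160*, had no value. *Tps1* lies elsewhere on the same arm, with 488 annotated genes between it and *CG5171*. Among the 5 annotated genes on each side of *Tps1* only *CG17612* had a value, 0.30 on array 3, so its surroundings could hardly be described.

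**Figure D3:**
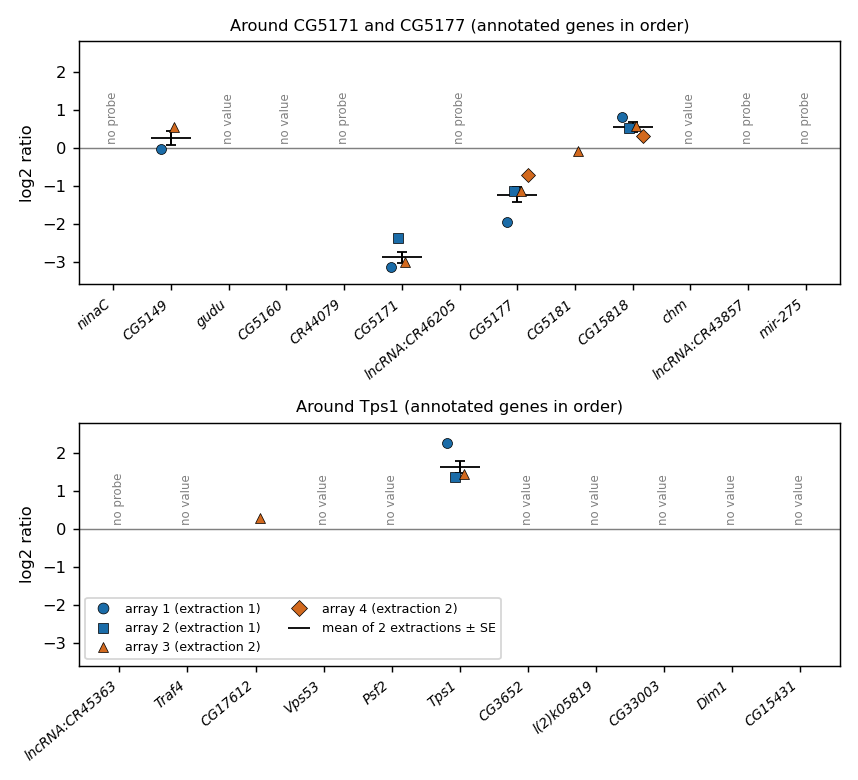
Log2 ratio on each array of the annotated genes around *CG5171* and *CG5177* (upper panel) and around *Tps1* (lower panel), in their order along arm 2L and not to scale, with bars for the mean of 2 extractions ± SE; "no probe" marks genes with no probe of their own here and "no value" those whose spots were removed. Only *CG5171* and *CG5177* have means below -1, and *CG15818* lies above 0 on all 4 arrays.

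The other genes of the pathway were taken from 4 lists made by function, of trehalose transport, of the supply of its precursors, of glycogen, and of sugar sensing and hormones. Of 45 genes 18 had a value and 12 could be tested. None of the 12 was called in either direction in limma, 3 had an unadjusted p under 0.05 and none an adjusted p under 0.05. Over all 1659 tested genes 568 had an unadjusted and 168 an adjusted p under 0.05. With the extraction as a random block none was called either, with 5 at an unadjusted and 1 at an adjusted p under 0.05. In that setting 129 of all 1659 genes were called and 640 had an unadjusted p under 0.05. At an adjusted p under 0.05, 1 pathway gene also passed with the arrays centred or scaled, of 12 tested in each. The count was 1 of 4 over genes on all 4 arrays and 1 of 9 without array 1. How many of all genes passed an adjusted p of 0.05 in these settings or in the random block is not given here. In the main fit the median log2 ratio of the 12 genes was 0.25, against 0.01 over all tested genes. Of the 12, 8 were above 0 and 4 below, and they ranged from -0.59 to 0.63. At 6.63% of all genes called, a count of none among 12 is not read as a result.

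Transport of trehalose across cell membranes was represented by *Tret1-1*, with log2 ratios of 0.58, 0.47 and -0.03 on arrays 1 to 3 and a mean of 0.25 ± 0.19 (SE, n = 2, adjusted p = 0.397 in limma). Its extractions differed in sign, and its 2 measured probes disagreed on array 3, at 0.39 and -0.44. The other transporter of the list, *Tret1-2*, had no value.

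Of the 15 genes that supply precursors 5 were tested and none was called. *Pgm1*, the phosphoglucomutase that links glucose 6-phosphate to glucose 1-phosphate, had log2 ratios of 0.64, 0.22, 0.40 and 0.17 on arrays 1 to 4. All were above 0, and the mean of 0.36 ± 0.13 did not pass (SE, n = 2, adjusted p = 0.146 in limma). *Pgm2a*, of the same enzyme family, had a mean of 0.24 ± 0.15. *Pgi*, which interconverts glucose and fructose 6-phosphate, had -0.07 ± 0.16, and the gluconeogenic genes *Pepck1* and *PCB* had -0.09 ± 0.17 and -0.26 ± 0.14, and none of these 4 means passed. *fbp*, the fructose bisphosphatase gene, had 0.45 and 0.48 on arrays 1 and 2, and the hexokinase gene *Hex-A* 0.10 on array 1, with no value in extraction 2. *UGP*, whose product makes the UDP-glucose that *Tps1* uses, had no value, and neither had *Hex-C*, *Glut1* or *G6P*.

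Glycogen is the other store of glucose in the fat body and in muscle. *Gyg*, the glycogenin that primes the chain, had log2 ratios of 0.75, 0.37, 0.69 and 0.73 on arrays 1 to 4, the highest mean of the pathway lists at 0.63 ± 0.13 (SE, n = 2, adjusted p = 0.0572 in limma). *Glyp*, the phosphorylase that releases glucose from glycogen, had 0.98, 0.46 and 0.25 on arrays 1 to 3 and a mean of 0.48 ± 0.17 (adjusted p = 0.141 in limma). Both genes were above 0 on every array that read them. *Glys*, the glycogen synthase gene, had a mean of 0.02 ± 0.17, and its extractions differed in sign. The branching enzyme gene *AGBE* was read in extraction 1 only, at -0.51 and -0.28.

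Of the hormone and sensing genes, *ImpL2*, whose product binds insulin-like peptides in the blood, had the lowest mean of the pathway lists, -0.59 ± 0.23 (SE, n = 2, adjusted p = 0.161 in limma). Its array values of -1.24, -0.74, -0.38 and -0.02 were all below 0, with both arrays of extraction 1 lower than both of extraction 2. *Akh*, which encodes the adipokinetic hormone that releases sugar and fat from the fat body, had 0.12 on array 1 and 0.45 on array 3 (mean 0.28 ± 0.15, adjusted p = 0.261 in limma). *Lst*, the gene of the hormone Limostatin, which lowers insulin secretion, had 0.49, 0.32 and 0.39 on arrays 1 to 3 (mean 0.40 ± 0.13, adjusted p = 0.117 in limma). The sugar sensor partner *bigmax* and the insulin pathway gene *chico* were read on array 3 only, at 0.37 and -0.06, and *daw*, a ligand of the activin branch, on array 1 only, at 0.07. The receptors *AkhR* and *InR*, the insulin-like peptide genes of the list, and the sugar-responsive factors *Mondo* and *sug* had no value.

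**Figure D4:**
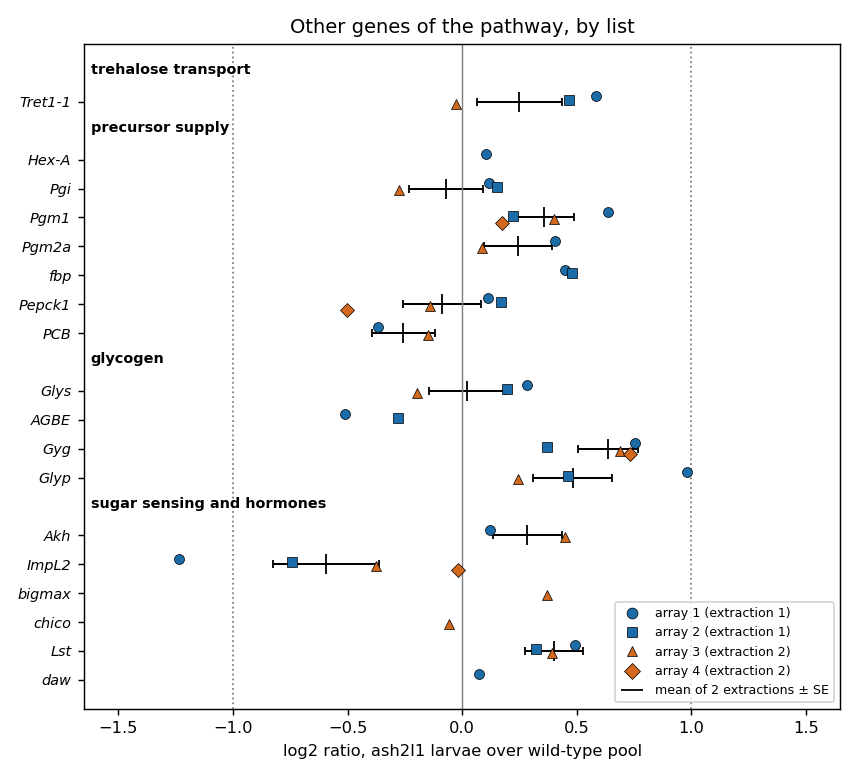
Log2 ratio on each array (points, by RNA extraction) of the 18 pathway genes with a value, grouped by list, with the mean of 2 extractions ± SE for the 12 that were tested; dotted lines mark a 2-fold change. No mean reaches a dotted line, and *Gyg* (0.63) and *ImpL2* (-0.59) are the outermost.

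Since the fat body is the main site of trehalose synthesis, its marker genes were set beside the members. In RNA of whole larvae, fewer cells of a tissue and less RNA per cell cannot be told apart. Of 10 markers 7 had a value and 6 were tested. Of these 3 were called lower, none higher and 3 were not called, against 2.83% lower and 3.80% higher over all tested genes. Their median log2 ratio was -0.95, against 0.01 over all tested genes, with a range from -2.11 to 0.18. The storage protein gene *Lsp2* had -2.25 on array 1 and -2.06 and -1.86 on arrays 3 and 4, and *Fbp1*, the receptor through which storage proteins are taken up, had -1.67, -1.05, -1.87 and -1.23 on arrays 1 to 4. Both lay below a 2-fold fall on every array that read them. The lipid droplet gene *Lsd-1* had a mean of -1.02 ± 0.13 (SE, n = 2), and the lipophorin gene *apolpp*, at -0.88 ± 0.14, did not reach a 2-fold change. *Fbp2*, at 0.01 ± 0.13, and *Lsd-2*, at 0.18 ± 0.13, were close to 0, and *Apoltp*, of lipid transfer particles, was read on array 3 only, at 0.56. *CG5171* had a lower mean than any of these markers, *CG5177* a mean between those of *Fbp1* and *Lsd-1*, and *Tps1* was the only gene of the 9 tested to rise past the threshold. The part of the fat body markers in the values of the trehalose genes was not tested.

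**Figure D5:**
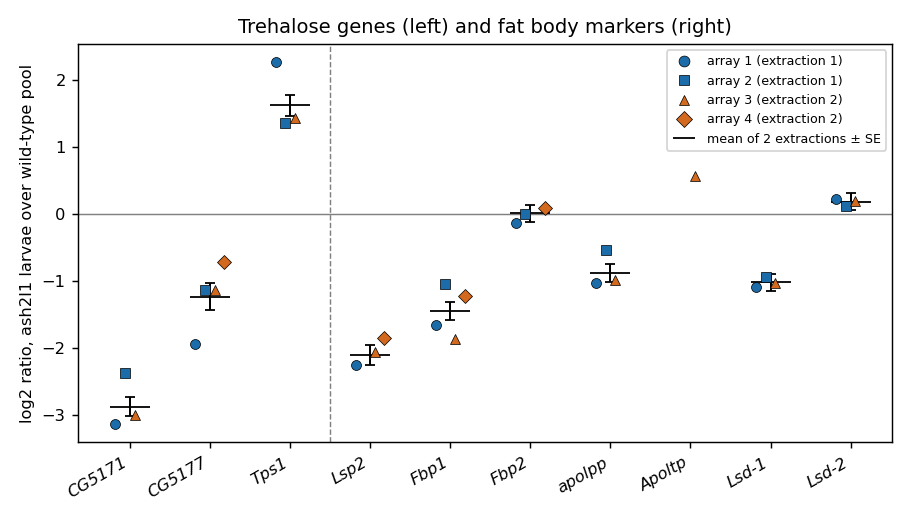
Log2 ratio on each array (points, by RNA extraction) and mean of 2 extractions ± SE for the 3 tested trehalose genes, left of the dashed line, and the 7 fat body markers with a value, right of it. *Lsp2* (-2.11), *Fbp1* (-1.46) and *Lsd-1* (-1.02) lie low beside *CG5171* and *CG5177*, whereas *Fbp2* and *Lsd-2* lie near 0 and *Tps1* lies at 1.63.

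Markers of other tissues were counted against the same shares over all tested genes, 3.80% higher and 2.83% lower. For counts at an unadjusted p under 0.05 in limma, 568 of all 1659 tested genes passed. Of 12 tested midgut markers 6 were called higher and 2 lower (median log2 ratio 0.71). Of 5 salivary gland markers 1 was called lower and all 5 had an unadjusted p under 0.05 (median -0.74), and they went both ways, with 3 below 0, down to -3.09, and 2 above, up to 0.80. None of 6 muscle markers (median 0.13, 1 at an unadjusted p under 0.05) or of 2 haemocyte markers (median 0.21, 1 at an unadjusted p under 0.05) was called in limma, and no nervous system marker could be tested. Ratios do not show how strongly a tissue was represented. The arrays held between 1108 and 3513 values, with fewest on array 4, and correlated with r from 0.65 to 0.96 across probes, which are not independent replicates. The probe of *ash2* gave no value, so the mutated gene could not be checked.

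Genes with array ratios most like those of each member were sought by the root mean square difference over at least 3 shared arrays. For *Tps1* the nearest of 991 genes were *SPH93*, a serine protease homologue, at 0.10 log2 units, *CG7916* at 0.11 and the maltase gene *Mal-A1* at 0.13. *SPH93* had 2.12, 1.31 and 1.37 on arrays 1 to 3, close to *Tps1* on each. For *CG5177* the nearest of 1065 genes were *CG11899* at 0.12, the transcription factor gene *Sox14* at 0.15 and the cuticle protein gene *Lcp9* at 0.16, each over the 3 arrays they shared. For *CG5171* no gene was so near. It had been picked for its fall and was the 2nd lowest of 1659 tested genes, where few others lie. Its larger distances are therefore not read as a trait of its pattern. *Hsp27*, a small heat shock gene, was at 0.36, *CG15399* at 0.56 and the cuticle protein gene *Cpr49Ac* at 0.67, again over 3 arrays. These differences describe arrays 1 to 3 of a single comparison, and array 4 entered none of them.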

How the data were processed

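Per the methods of the study, spots were quantified in GenePix and those of poor quality dropped. The authors applied a normexp background correction, then OLIN within each array, and a scaling of the 4 arrays by their median absolute deviation. The deposited values were taken as log2 ratios of mutant over wild type, by the convention of limma and the dyes in the labels, since the table states neither base nor direction. A dropped spot is empty. Scanner files were not used here, and signal strength is not known.

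The platform annotation gave 1 gene for 13164 of 16416 probes, several for 101 and none for 3151. Current symbols came from the RefSeq gene table of Release 6, matched on the gene identifier (12533 probes), an accession (120) or the symbol (21), and 490 older names were left as they were. The study used an earlier build, so only names, arms and gene order were taken from this table.

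Probes were averaged by gene on each array, and arrays by extraction. In limma 3.58.1 (R 4.3.3) the mean ratio was tested against 0 for all 1659 genes with a value in both extractions, using moderated variances and p-values adjusted by Benjamini-Hochberg over these genes. SE is the moderated standard error. The fit was tested on simulated data. Python 3.11.15 with pandas 2.3.3, NumPy 2.4.6 and matplotlib 3.10.9 was used.

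The members, the pathway lists and the marker lists (fat body, midgut, muscle, salivary gland, haemocytes, nervous system) were chosen with earlier results of these data known. Named were the members, every pathway gene with a value, measured genes within 5 annotated places of *CG5171*, *CG5177* and *Tps1*, and for each member the 3 genes most like it. Fat body markers were named after their values were seen. Alternatives were a random block for the extraction, centring or scaling of arrays, 1 probe per gene, genes on at least 3 or all 4 arrays, unnamed probes tested too, and leaving out each array.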

Additional observations from a re-analysis of the deposited data

Results flagged for a closer look

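Of 10 named genes with a value on all 4 arrays, 2 had an array whose gap to the nearest of the others took up an unusually large part of the whole range (above Dixon's 95% critical value for 4 values). Chance flags about 1 in 20 such groups of independent values, but arrays 1 and 2 shared amplified RNA, as did arrays 3 and 4. For *Gyg* the gap was 0.833 of the range, with array 2 at 0.37 and arrays 1, 3 and 4 between 0.69 and 0.75. For *Mal-A1*, named for its likeness to *Tps1*, it was 0.839 of the range, with array 1 at 2.45 and the others between 1.14 and 1.35. Array 1 was also the highest for *Tps1*.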

How the results depend on the processing

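*Tps1* kept its direction under every alternative that could give a value. As a description, the log2 ratio of *CG5171* ran from -3.07 without array 2 to -2.69 without array 1, and that of *CG5177* from -1.44 to -1.03. *Tps1* was called in 9 of 9 alternatives. Its own values were the same with 1 probe per gene, on at least 3 arrays, with unnamed probes and without array 4. Those settings changed only the other genes in the fit. Without array 3 neither *CG5171* nor *Tps1* had a value in extraction 2, and on all 4 arrays neither had a value. *Treh* stayed at 0.63 under centring and scaling and had no value without array 3. No gene of the pathway lists was called under any alternative, with from 4 to 12 of them tested. Over all genes the share called ran from 0 of 358 without array 3 to 49 of 278 over genes on all 4 arrays. With so few pathway genes tested, a count of none is not read as a result.

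Of all genes, 110 were called, 49 of 278 when a value on all 4 arrays was required (fewer genes were tested), and 184 of 2312 when unnamed probes were tested too (more features were tested). Leaving out single arrays gave from 0 (without array 3) to 123 calls. No paired analysis was possible because the arrays form a single group against 1 pool. Depth is not known for these arrays, and removed spots limit what could be read.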
